A study of Mus musculus with 18 samples.

Results

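Biliary epithelial cells and Kupffer-like cells from bile duct ligated mouse livers were compared gene by gene. BECs (biliary epithelial cells, or cholangiocytes) form the wall of the bile ducts, Kupffer-like cells carry the name of the macrophages that live in the liver sinusoids, and bile duct ligation (BDL) is the surgical blockage of bile outflow. The comparison used 6 of 18 polyadenylated RNA libraries, 3 of BDL BECs and 3 of BDL Kupffer-like cells. Another 3 Sham BECs libraries and 3 Sham Kupffer-like cells libraries, from mice operated on without ligation, were used only to ask whether the difference between the cell types was the same without ligation. The labels name no allele or transgene in any group. Strain, age, the time after ligation, the method that purified the cells and any pooling of animals are not stated. Nothing in the labels says that the libraries of a group came from separate animals. Each BDL group held libraries of both sexes by their Xist and Y-linked RNA, and so more than 1 animal, but whether every library was a separate animal is not known. The sex of the Sham libraries is not given here. The p-values measure only the spread between these samples, part of which may be technical. The values are FPKM, that is fragments counted for each kilobase of a transcript and divided by a measure of library size. A gene entered the comparison if 3 or more of the 6 libraries had an FPKM of 1 or more. This kept 13511 of the 54532 genes in the table.

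Cholangiocytes are polarised epithelial cells that modify bile by secreting bicarbonate and chloride and taking up glucose and bile acids, and each carries a primary cilium that senses flow. When bile is blocked they multiply and form new ductules, the ductular reaction, and they are known to release chemokines and growth factors towards macrophages, stellate cells and other neighbours. Kupffer cells clear bacteria, debris and old red cells from sinusoidal blood, recycle iron and handle lipoprotein cholesterol. Their identity rests on transcription factors that include Spi1, Nr1h3, Spic and Id3.

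Recovered reads in genes numbered 15455406 to 17502177 per library. Pearson's r of log2(FPKM + 1) over genes was 0.927 to 0.965 within BDL BECs, 0.903 to 0.958 within BDL Kupffer-like cells and 0.704 to 0.756 between them. In each group, replicate 3 stood apart from the other two. BDL BECs 3 held genes of stratified squamous epithelium (keratins and their partners, 9 genes) with a summed level of 0.843, 1.74 and 2351 FPKM in BDL BECs 1 to 3, and 14.2, 7.80 and 6.41 FPKM in BDL Kupffer-like cells 1 to 3. It also held pancreatic acinar genes (digestive enzymes, 10 genes), whose sums were 306, 11.2 and 5743 FPKM in BDL BECs and 2.76, 0 and 3.52 FPKM in BDL Kupffer-like cells. These lists were put together after the values had been seen. BDL Kupffer-like cells 3 had the lowest sum of Kupffer cell identity genes, 10549.5, 7545 and 1924 FPKM over the 3 libraries, and the highest sum of erythroid genes, 3486, 570.5 and 24486 FPKM. Its neutrophil genes also summed highest, with 927, 894 and 2478 FPKM in the 3 libraries. Y-linked genes and Xist marked 1 library of each group as male, replicate 1, and the others as female. Counts that depend on any of these libraries are given with and without them. In bulk RNA, fewer cells of a type and less RNA per cell cannot be told apart, and this holds for every marker sum given here.

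Of the 13511 genes tested, 2404 (17.8%) were higher in BDL BECs and 1894 (14%) were higher in BDL Kupffer-like cells, at a Benjamini-Hochberg adjusted p under 0.05 with limma on log2(FPKM + 1). The difference was at least 2-fold in 1720 of the genes higher in BECs and in 1128 of those higher in Kupffer-like cells. The median log2 fold change over all genes tested was 0.02, and every fold change here is BECs over Kupffer-like cells on the log2(FPKM + 1) scale, which understates changes of low genes. A number given alone after a gene's name is its log2 fold change, negative where the gene was higher in Kupffer-like cells. When both replicates 3 were left out, 2684 genes were higher in BECs and 2161 in Kupffer-like cells. Leaving out 1 library gave 1730 (without BDL BECs 2) to 3004 (without BDL Kupffer-like cells 3) genes higher in BECs. It gave 962 to 2612 genes higher in Kupffer-like cells, where the count without BDL BECs 1 was 1082, without BDL BECs 2 it was 962, without BDL BECs 3 it was 1088, and without BDL Kupffer-like cells 2 it was 1212. In all 6 such fits, 1562 genes were called higher in BECs and 842 higher in Kupffer-like cells. Of the named genes that were called, 163 of 199 kept the call in all 6, and the libraries whose omission ended it stand beside the others where their call is described. Where no gene of a list was called in one direction, such fits called at most 3 there, except for the cell cycle genes. The count of each list is to be read against the 17.8% and 14% of all genes. Groups said not to overlap describe the values of the named genes only, as the share of all genes without overlap is not given. Scaling every library to the same FPKM sum moved the median of all genes to 0.26 and the split to 2992 genes higher in BECs and 1122 higher in Kupffer-like cells, so that 72.7% of calls were higher in BECs in place of 55.9%. Fold changes under that scaling are to be read against its median. Scaled to recovered reads the split was 2650 and 1440, or 64.8%.

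**Figure D1:**
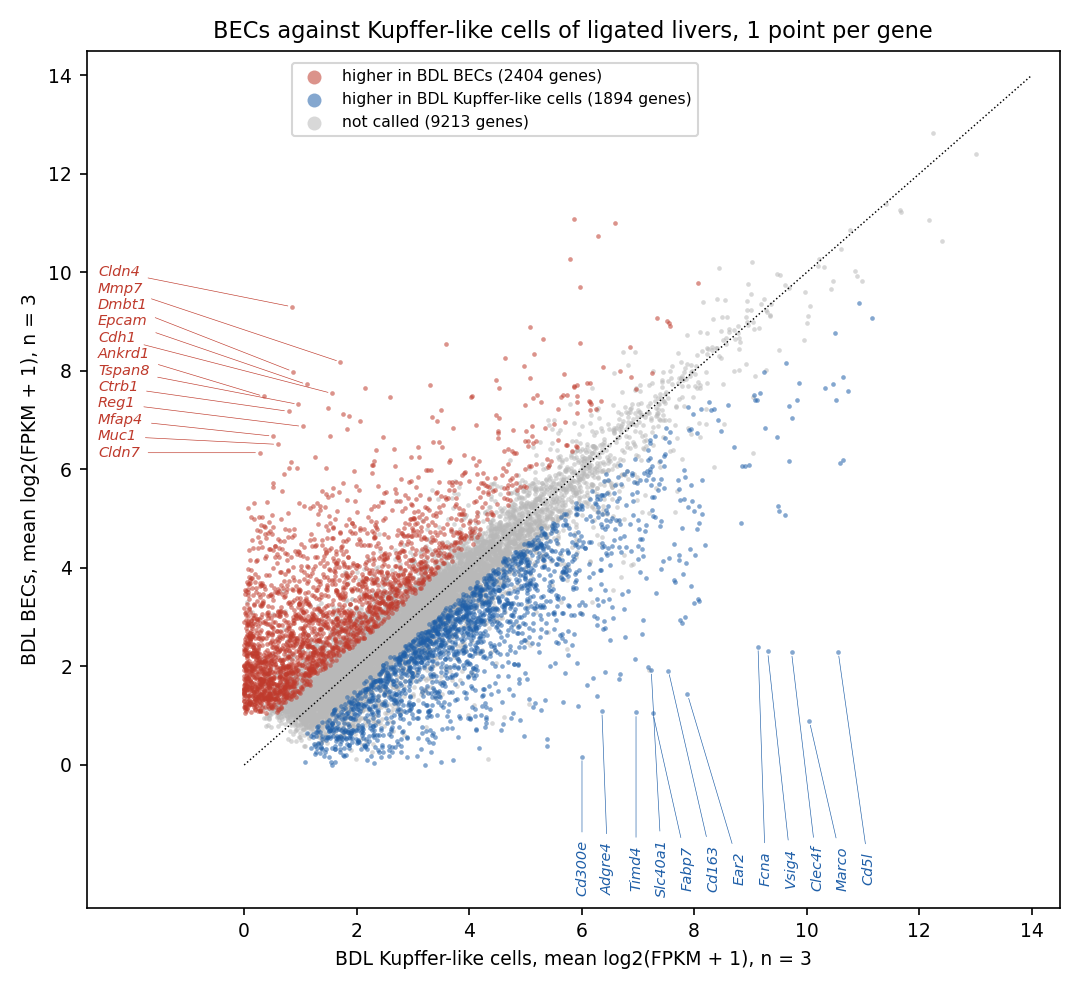
Mean log2(FPKM + 1) of the 3 BDL BECs libraries (vertical axis) against that of the 3 BDL Kupffer-like libraries (horizontal axis), 1 point per gene tested, with equal levels on the dotted line. Red points are the 2404 genes higher in BECs, blue points the 1894 higher in Kupffer-like cells and grey points were not called, and the named genes at the edges include Cldn4 (log2 fold change 8.45) and Marco (-9.16).

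Cldn4, a claudin of epithelial tight junctions, had the largest fold change among called genes at a mean of at least 10 FPKM in BECs. Groups that do not overlap were a further condition for the 12 largest genes in each direction, so their separation follows from the choice. It had 668, 609.9 and 615 FPKM in BDL BECs, against 0.546, 1.74 and 0.382 FPKM in BDL Kupffer-like cells. The 3 BECs libraries were close to each other and every Kupffer-like library was far below them (log2 fold change 8.45 ± 0.28 (SE), limma adjusted p = 8.3e-05). Ankrd1, a transcriptional target of the Hippo pathway effector YAP, had 187, 295 and 102 FPKM in BDL BECs, against 0.462, 0.266 and 0.121 FPKM in BDL Kupffer-like cells (log2 fold change 7.13 ± 0.38 (SE), limma adjusted p = 1.7e-04). Dmbt1, a mucosal scavenger protein, reached 84.2, 323 and 591 FPKM in BDL BECs, against 0.190, 1.22 and 1.31 FPKM in BDL Kupffer-like cells. The matrix protease Mmp7 had 229.8, 185 and 570.1 FPKM in BDL BECs, against 1.58, 7.23 and 0.650 FPKM in BDL Kupffer-like cells. Both Dmbt1 and Mmp7 were highest in BDL BECs 3. Epcam, Tspan8, Cldn7, Cdh1, Muc1, Mfap4 and Reg1 were also among the 12 largest, with log2 fold changes of 5.83 (Reg1) to 6.61 (Epcam). The remaining one was Ctrb1, a pancreatic digestive enzyme, with 104, 11.2 and 2386 FPKM in BDL BECs, against 1.33, 0 and 1.22 FPKM in BDL Kupffer-like cells. Most of its level came from BDL BECs 3, and its call was lost without BDL BECs 1 or BDL Kupffer-like cells 1, 2 or 3.

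In the other direction the extreme was Marco, a scavenger receptor for bacteria, with 2.04, 0.740 and 0.202 FPKM in BDL BECs, against 2461, 1304 and 369 FPKM in BDL Kupffer-like cells. Its lowest Kupffer-like library, replicate 3, was still far above every BECs library (log2 fold change -9.16 ± 0.73 (SE), limma adjusted p = 5.1e-04). Cd5l, a secreted macrophage protein that binds lipids and pathogens, had 6.76, 7.89 and 0.716 FPKM in BDL BECs, against 2901, 1718 and 691 FPKM in BDL Kupffer-like cells (log2 fold change -8.27 ± 0.79 (SE), limma adjusted p = 9.1e-04). Clec4f, the lectin that defines mouse Kupffer cells, had 4.62, 11.2 and 0.708 FPKM in BDL BECs, against 1705, 1213 and 295 FPKM in BDL Kupffer-like cells. Vsig4, a complement receptor, had 4.45, 8.57 and 1.31 FPKM in BDL BECs, against 1379.7, 1096 and 167 FPKM in BDL Kupffer-like cells. In all 4 genes the order among the Kupffer-like libraries was the same, with replicate 1 highest and replicate 3 lowest. The other 8 of the 12 were Fcna, Ear2, Fabp7, Timd4, Cd300e, Cd163, Slc40a1 and Adgre4, with log2 fold changes of -6.73 (Fcna) to -5.26 (Adgre4). Ear2 belongs to a family of near-identical ribonuclease genes, so reads may be split between copies and its value is uncertain.

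The bases ahead of the start of 4 of these genes are printed to show which letters the promoters of the most cell-restricted genes hold. They are the 250 bases upstream of the RefSeq gene start on GRCm38.p6, in the gene's own 5′ to 3′ direction, and capitals mark motif matches on either strand. The motifs searched were GGAATG (TEAD, the DNA partner of YAP) and AGGAAG (ETS, the family of the macrophage factor Spi1). Cldn4 lies at chr5:134946935-134947184 on the minus strand and Ankrd1 at chr19:36119845-36120094 on the minus strand. Marco lies at chr1:120505025-120505274 on the minus strand and Cd5l at chr3:87357631-87357880 on the plus strand.
Cldn4: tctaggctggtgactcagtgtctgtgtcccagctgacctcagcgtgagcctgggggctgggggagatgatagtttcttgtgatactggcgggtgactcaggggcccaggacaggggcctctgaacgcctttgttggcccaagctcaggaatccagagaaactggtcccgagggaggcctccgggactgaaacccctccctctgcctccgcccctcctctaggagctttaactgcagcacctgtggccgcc
Ankrd1: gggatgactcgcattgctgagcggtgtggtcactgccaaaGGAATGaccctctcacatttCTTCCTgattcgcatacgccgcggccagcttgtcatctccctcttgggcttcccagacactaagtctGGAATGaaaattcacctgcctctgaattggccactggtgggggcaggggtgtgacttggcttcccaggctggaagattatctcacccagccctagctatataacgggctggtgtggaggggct
Marco: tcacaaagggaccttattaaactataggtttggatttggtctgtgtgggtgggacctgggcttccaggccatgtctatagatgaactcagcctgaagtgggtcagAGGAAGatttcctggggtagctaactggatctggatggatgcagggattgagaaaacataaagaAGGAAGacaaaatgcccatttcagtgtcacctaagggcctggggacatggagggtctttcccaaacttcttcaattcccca
Cd5l: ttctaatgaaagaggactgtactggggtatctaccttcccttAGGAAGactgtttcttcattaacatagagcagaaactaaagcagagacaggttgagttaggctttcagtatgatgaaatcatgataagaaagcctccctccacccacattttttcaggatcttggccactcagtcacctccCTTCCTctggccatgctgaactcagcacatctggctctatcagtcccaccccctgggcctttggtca
In the Ankrd1 window the TEAD letters began 210 and 123 bases before the start and an ETS match on the other strand began at 190. Marco held ETS letters at 145 and 81 bases, and Cd5l at 208 and 67 bases, the match at 67 bases being on the other strand. Cldn4 held neither motif in this window. Over all 32851 windows of the same length, 12.6% held the TEAD letters and 29.5% the ETS letters, and over the 12241 windows of genes tested the shares were 10.8% and 29.0%. Among genes higher in BECs the shares were 13.2% and 26.4%, and among genes higher in Kupffer-like cells they were 9.34% and 34.9%. A match is a description of letters and not a binding site.

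The label of the BECs was checked against 20 biliary and ductal epithelial markers. All 20 were higher in BDL BECs, with a median log2 fold change of 4.47, and their FPKM summed to 5909 to 7221 FPKM in BDL BECs and 249.8 to 337 FPKM in BDL Kupffer-like cells. Krt19, the cholangiocyte keratin, had 291, 384 and 459 FPKM in BDL BECs, against 12.2, 13.0 and 8.49 FPKM in BDL Kupffer-like cells. Krt7, its ductal partner, had 31.8, 31.2 and 33.7 FPKM in BDL BECs, against 2.22, 2.88 and 0.879 FPKM in BDL Kupffer-like cells. Sox9, the transcription factor of biliary and progenitor cells, had 84.8, 60.9 and 52.5 FPKM in BDL BECs, against 0.381, 0.471 and 1.60 FPKM in BDL Kupffer-like cells. None of the 3 genes overlapped between the groups. Krt8, a keratin shared by all simple epithelia, stood far above these keratins in FPKM, at 1730.0 ± 252 FPKM in BDL BECs and 80.8 ± 31.3 FPKM in BDL Kupffer-like cells (SD, n = 3 each). Spp1 (osteopontin), a secreted matrix protein that cholangiocytes make, reached 2243, 2185 and 1784 FPKM in BDL BECs, against 129, 93.5 and 71.6 FPKM in BDL Kupffer-like cells.

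**Figure D2:**
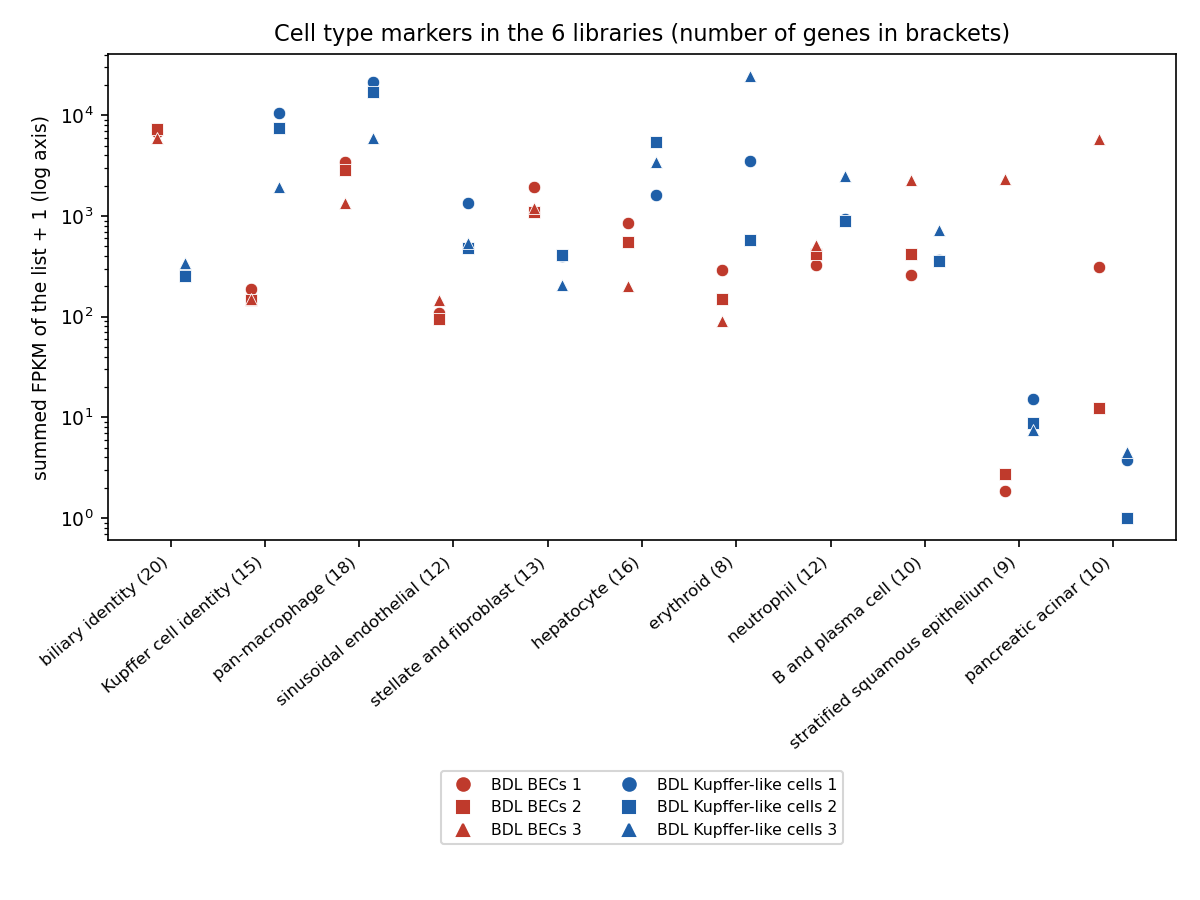
Summed FPKM + 1 of each marker list (logarithmic axis, number of genes in brackets) in the 3 BDL BECs libraries (red, left of each pair) and the 3 BDL Kupffer-like libraries (blue, right), with 1 symbol per library. Biliary identity and stellate sums lie higher in BECs, Kupffer cell and sinusoidal endothelial sums lie higher in Kupffer-like cells, and the squamous and acinar sums are highest in BDL BECs 3, with BDL BECs 1 next for the acinar sum.

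Of 18 transcription factors of the biliary lineage tested, 14 were higher in BECs, none was higher in Kupffer-like cells, and the median was 2.24. Elf3, an ETS factor of epithelia, had 39.4, 55.5 and 65.1 FPKM in BDL BECs, against 0.158, 0.485 and 0.674 FPKM in BDL Kupffer-like cells (log2 fold change 5.23 ± 0.24 (SE), limma adjusted p = 1.4e-04). The epithelial factors Ehf (4.82), Klf5 (3.95) and Grhl2 (2.21) were all higher. So were Sox4 (3.83), Foxa1 (3.42), Foxa2 (2.04), Onecut1 (1.48) and Onecut2 (2.46), the forkhead and onecut factors of liver development. The 4 factors not called were Nr5a2, Nr1h4, Hnf4a and Foxa3, which hepatocytes also use. Hnf4a, the main hepatocyte factor, had 11.1, 11.2 and 15.2 FPKM in BDL BECs, against 16.6, 11.1 and 41.3 FPKM in BDL Kupffer-like cells, and its groups overlapped.

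Tight and adherens junction genes and desmosomal genes were called higher in BECs in 18 of 20, with a median of 3.63. Besides Cldn4 they included Cldn7 (6.07), Cldn6 (4.92), Cldn3 (4.89) and Cldn2 (4.05), which set what passes between cells, and Ocln (4.12). Cdh1 (E-cadherin) had 197, 205 and 158 FPKM in BDL BECs, against 1.76, 1.79 and 2.35 FPKM in BDL Kupffer-like cells (log2 fold change 5.98 ± 0.17 (SE), limma adjusted p = 7.2e-05). Cldn8 had 2.69, 4.63 and 4.25 FPKM in BDL BECs and was listed at 0 in all 3 BDL Kupffer-like libraries. The gap junction gene Gjb1 had 12.0, 19.6 and 28.9 FPKM in BDL BECs, against 2.90, 12.7 and 7.51 FPKM in BDL Kupffer-like cells and was not called. Cldn1 had 2.29, 1.83 and 1.00 FPKM in BDL BECs, against 0.0963, 1.43 and 1.32 FPKM in BDL Kupffer-like cells and was not called either.

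Ductal transport genes were higher in BECs in 13 of 16 tested and higher in Kupffer-like cells in 1, with a median of 1.75. Without BDL BECs 3 the 13 became 9. Cftr, the chloride channel that drives bicarbonate secretion, had 10.8, 14.6 and 7.28 FPKM in BDL BECs, against 0.0150, 0.00865 and 0.0275 FPKM in BDL Kupffer-like cells (log2 fold change 3.50 ± 0.24 (SE), limma adjusted p = 3.3e-04). Sctr, the secretin receptor that opens it through cAMP, had 3.28, 6.35 and 5.05 FPKM in BDL BECs, against 0.0869, 0 and 0.0265 FPKM in BDL Kupffer-like cells. Both were close to 0 in every Kupffer-like library. Ano1, the calcium-gated chloride channel, stood at 18.8 ± 2.68 FPKM in BDL BECs and 0.669 ± 0.167 FPKM in BDL Kupffer-like cells (SD, n = 3 each). Slc5a1, which takes up glucose from bile, and Slc10a2, which takes up bile acids, had log2 fold changes of 4.28 and 1.80. The anion exchanger Slc4a2, which exports the bicarbonate, had 0.67 (call lost without BDL BECs 2 or 3). Abcc3, an export pump for conjugated bile acids, was the 1 gene higher in Kupffer-like cells, with 15.5, 16.1 and 24.8 FPKM in BDL BECs, against 76.6, 76.4 and 34.2 FPKM in BDL Kupffer-like cells (call lost without BDL BECs 1 or 2 or BDL Kupffer-like cells 1 or 2). The water channel Aqp1 had 103, 109 and 152 FPKM in BDL BECs, against 781, 196 and 322 FPKM in BDL Kupffer-like cells and was not called. Slc51a and Slc51b, the basolateral bile acid exporter, were under 1 FPKM in all 6 libraries and were not tested.

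Of 12 cilium genes, 10 were higher in BECs, with a median of 1.28, and the count was 7 without BDL BECs 1, without BDL BECs 3 or without BDL Kupffer-like cells 1. Pkhd1, the fibrocystin gene of the biliary cilium, had 12.0, 14.9 and 12.5 FPKM in BDL BECs, against 0.0204, 0.0939 and 0.0858 FPKM in BDL Kupffer-like cells (log2 fold change 3.72 ± 0.14 (SE), limma adjusted p = 1.1e-04). Bicc1 and Cys1, both linked to cystic disease, had log2 fold changes of 3.38 and 2.39, and the polycystin Pkd2 had 1.63. Basement membrane and integrin genes were called higher in BECs in 16 of 17 tested (median 2.09). They included the laminin chains Lama3 (1.90) and Lamb3 (3.92) and the integrin subunits Itga6 (2.00) and Itgb4 (3.84). Itgb6, a subunit of the integrin that activates latent TGF-beta, had 9.46, 13.5 and 4.97 FPKM in BDL BECs, against 0.0246, 0.0378 and 0.0300 FPKM in BDL Kupffer-like cells. Only Nid1 of those tested was not called, with 30.8, 20.0 and 25.9 FPKM in BDL BECs, against 20.0, 13.4 and 13.7 FPKM in BDL Kupffer-like cells.

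Of 14 Notch pathway genes tested, 6 were higher in BECs and 1 was higher in Kupffer-like cells (median 0.99). The ligand Jag1, needed for bile duct formation, had 29.9, 29.4 and 20.6 FPKM in BDL BECs, against 2.85, 1.29 and 1.56 FPKM in BDL Kupffer-like cells (log2 fold change 3.27 ± 0.25 (SE), limma adjusted p = 4.6e-04). The target Hes1 had 293, 380.1 and 304 FPKM in BDL BECs, against 57.1, 49.8 and 14.2 FPKM in BDL Kupffer-like cells. Notch3 and its target Heyl, which mural cells also express, had log2 fold changes of 2.70 and 2.73. The receptor Notch1 had 8.81, 4.96 and 7.60 FPKM in BDL BECs, against 7.67, 7.62 and 8.65 FPKM in BDL Kupffer-like cells. Notch2, the other main receptor of the duct, had 18.2, 16.3 and 14.8 FPKM in BDL BECs, against 8.21, 12.8 and 21.8 FPKM in BDL Kupffer-like cells. Neither was called, and both overlapped between the groups. Lfng, a glycosyltransferase that modifies Notch receptors, was higher in Kupffer-like cells with 20.7, 15.7 and 14.7 FPKM in BDL BECs, against 37.9, 50.1 and 42.4 FPKM in BDL Kupffer-like cells.

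Of 14 Hippo pathway genes and YAP targets, 11 were higher in BECs and 1 was higher in Kupffer-like cells, with a median of 1.55. Cyr61, a secreted YAP target, had 777, 1048 and 707 FPKM in BDL BECs, against 63.8, 128 and 28.5 FPKM in BDL Kupffer-like cells (log2 fold change 3.73 ± 0.54 (SE), limma adjusted p = 0.0038). Ctgf, another such target, had 263, 149 and 145 FPKM in BDL BECs, against 40.9, 24.5 and 3.21 FPKM in BDL Kupffer-like cells. The groups did not overlap, but the call was lost without BDL BECs 1, 2 or 3 or BDL Kupffer-like cells 2. Yap1 itself (1.16), Wwtr1 (1.43, call lost without BDL BECs 1) and the TEAD genes, Tead1 (2.01), Tead2 (1.49), Tead3 (1.69) and Tead4 (1.13), were all higher in BECs. Lats2, a kinase that restrains YAP, had 5.13, 4.13 and 4.94 FPKM in BDL BECs, against 5.85, 3.98 and 4.99 FPKM in BDL Kupffer-like cells and was not called. Axl, a receptor tyrosine kinase, was higher in Kupffer-like cells (-1.45, call lost without BDL BECs 2 or 3 or BDL Kupffer-like cells 1 or 2).

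Epithelial defence proteins were called higher in BECs in 7 of 12 tested, and in 4 without BDL BECs 2 or without BDL Kupffer-like cells 1 (median 2.84). The mucin Muc1 had 65.6, 91.8 and 121 FPKM in BDL BECs, against 0.348, 0.916 and 0.341 FPKM in BDL Kupffer-like cells. The secreted Wfdc2 and the trefoil peptide Tff2 had log2 fold changes of 5.33 and 4.54. Reg3b, an antibacterial lectin with a close copy in Reg3g, had 10.7, 30.8 and 100.2 FPKM in BDL BECs, against 0.306, 0.823 and 0.187 FPKM in BDL Kupffer-like cells. The values of Reg3b, Duox2 and Duoxa2 were lowest in BDL BECs 1 and highest in BDL BECs 3. For Duox2 the call was lost without BDL BECs 2 or BDL Kupffer-like cells 1, 2 or 3, and for Duoxa2 it was lost without these and BDL BECs 3. Pigr, which carries IgA into bile, had 4.31, 14.5 and 15.5 FPKM in BDL BECs, against 2.10, 8.08 and 5.33 FPKM in BDL Kupffer-like cells and was not called. Lcn2 had 240.1, 158 and 213 FPKM in BDL BECs, against 39.8, 166 and 55.6 FPKM in BDL Kupffer-like cells and was not called, with overlapping groups.

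The label of the Kupffer-like cells was checked against 15 Kupffer cell identity genes. Higher in BDL Kupffer-like cells were 14 of them, none was higher in BECs, and the median log2 fold change was -4.86. The list summed to 145 to 185 FPKM in BDL BECs and 1924 to 10549.5 FPKM in BDL Kupffer-like cells. Timd4, a receptor for dying cells found on long-resident Kupffer cells, had 2.06, 1.34 and 0.291 FPKM in BDL BECs, against 259, 169 and 43.3 FPKM in BDL Kupffer-like cells (log2 fold change -5.90 ± 0.69 (SE), limma adjusted p = 0.0019). Folr2, a folate receptor, had 0.459, 0.780 and 0.283 FPKM in BDL BECs, against 56.3, 35.1 and 14.1 FPKM in BDL Kupffer-like cells. C6, a late complement component, had 5.80, 2.91 and 2.23 FPKM in BDL BECs, against 282, 259 and 24.9 FPKM in BDL Kupffer-like cells. In these 3 genes the groups did not overlap. The exception was Id3, a factor that Kupffer cells need for their identity, with 143, 94.1 and 131 FPKM in BDL BECs, against 487, 533 and 98.6 FPKM in BDL Kupffer-like cells. BDL Kupffer-like cells 3 lay within the BECs range for Id3, and the log2 fold change without that library was -2.07 (limma adjusted p = 0.0022).

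General macrophage genes were higher in Kupffer-like cells in 17 of 18, with a median of -2.77, and the list summed to 1331 to 3463 FPKM in BDL BECs and 5982 to 21612 FPKM in BDL Kupffer-like cells. The number fell to 9 without BDL BECs 3, 10 without BDL BECs 2, 10 without BDL Kupffer-like cells 1 and 11 without BDL Kupffer-like cells 2. Csf1r, the receptor that keeps macrophages alive, had 84.1, 95.0 and 35.5 FPKM in BDL BECs, against 726, 600.1 and 249 FPKM in BDL Kupffer-like cells (log2 fold change -2.84 ± 0.54 (SE), limma adjusted p = 0.011). Adgre1, which encodes F4/80, had 30.7, 30.0 and 10.6 FPKM in BDL BECs, against 394, 221 and 90.6 FPKM in BDL Kupffer-like cells. The BECs libraries held transcripts of both genes at levels above 0. Cd14, the lipopolysaccharide co-receptor, was not called, with 807, 581 and 361 FPKM in BDL BECs, against 1525, 1277 and 582 FPKM in BDL Kupffer-like cells. The complement genes C1qa, C1qb and C1qc had log2 fold changes of -3.11, -3.14 and -3.51, and for each the call was lost without BDL BECs 1, 2 or 3 or BDL Kupffer-like cells 1 or 2.

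Among 18 macrophage transcription factors, 14 were higher in Kupffer-like cells and none in BECs (median -1.66, 9 without BDL BECs 1). Nr1h3 (LXR-alpha), the cholesterol sensor that sets the Kupffer cell programme, had 5.12, 4.86 and 4.41 FPKM in BDL BECs, against 132, 92.0 and 58.6 FPKM in BDL Kupffer-like cells (log2 fold change -3.96 ± 0.30 (SE), limma adjusted p = 4.3e-04). Spic, which red cell haem induces in iron-recycling macrophages, had 1.85, 2.01 and 0.924 FPKM in BDL BECs, against 70.4, 44.9 and 10.5 FPKM in BDL Kupffer-like cells. Spi1, which myeloid cells need throughout, had 28.2, 23.9 and 11.7 FPKM in BDL BECs, against 157, 142 and 108 FPKM in BDL Kupffer-like cells. All 3 factors stood apart between the groups. Maf (-2.65), Rxra (-2.26), Irf8 (-1.71) and Tfec (-2.94) were higher as well. Runx1 had 7.10, 4.75 and 6.14 FPKM in BDL BECs, against 3.90, 4.95 and 5.34 FPKM in BDL Kupffer-like cells. Klf4 had 162, 97.6 and 224 FPKM in BDL BECs, against 260.2, 284 and 115 FPKM in BDL Kupffer-like cells. Neither was called.

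Fc and scavenger receptors were higher in Kupffer-like cells in 16 of 19 tested, with a median of -2.76. Fcgr4, an activating receptor for antibody complexes, had 10.5, 9.34 and 7.36 FPKM in BDL BECs, against 469, 600.0 and 71.4 FPKM in BDL Kupffer-like cells (log2 fold change -4.78 ± 0.79 (SE), limma adjusted p = 0.0063). Cd163, which takes up haemoglobin, had 2.26, 3.59 and 2.59 FPKM in BDL BECs, against 349, 598 and 29.9 FPKM in BDL Kupffer-like cells. Mrc1, the mannose receptor, had 16.3, 17.3 and 11.4 FPKM in BDL BECs, against 257, 313 and 59.5 FPKM in BDL Kupffer-like cells. In each, BDL Kupffer-like cells 3 was the lowest of its group and still above all BECs libraries. Itgax, the dendritic cell integrin, had 20.7, 13.7 and 3.16 FPKM in BDL BECs, against 4.76, 3.71 and 29.9 FPKM in BDL Kupffer-like cells and was not called. Lysosomal genes were higher in Kupffer-like cells in 13 of 20 (median -1.62), and in 6 to 8 when BDL BECs 1 (8), BDL BECs 2 (6), BDL BECs 3, BDL Kupffer-like cells 1 or BDL Kupffer-like cells 2 (7 each) was left out. Ctsb, a cathepsin, had 207, 166 and 139.5 FPKM in BDL BECs, against 1367, 1212 and 446 FPKM in BDL Kupffer-like cells (log2 fold change -2.42 ± 0.47 (SE), limma adjusted p = 0.011), and Lipa, the acid lipase of the lysosome, had -1.99 as log2 fold change.

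Genes of iron and haem handling were higher in Kupffer-like cells in 10 of 18 and higher in BECs in 2 (median -1.48). The 2 became 0 without BDL BECs 1, 2 or 3 and 1 without BDL Kupffer-like cells 1 or 3, and 4 with libraries scaled to the same FPKM sum. Slc40a1 (ferroportin), the sole iron exporter, had 2.88, 3.50 and 2.17 FPKM in BDL BECs, against 219, 201 and 76.0 FPKM in BDL Kupffer-like cells (log2 fold change -5.31 ± 0.42 (SE), limma adjusted p = 5.1e-04). Hmox1, which opens the haem ring, had 184, 121 and 169 FPKM in BDL BECs, against 1104, 1298 and 392 FPKM in BDL Kupffer-like cells (call lost without BDL BECs 2). Blvrb, which reduces its product, had 8.34, 8.37 and 8.51 FPKM in BDL BECs, against 62.0, 65.7 and 38.4 FPKM in BDL Kupffer-like cells. The phagosomal metal transporter Slc11a1 was higher in Kupffer-like cells too (-2.84). Fth1, the ferritin heavy chain, had 3259, 1949 and 2208 FPKM in BDL BECs, against 3412, 3527 and 2898 FPKM in BDL Kupffer-like cells and was not called. Hamp (hepcidin), the hepatocyte hormone that closes ferroportin, had 33.0, 27.0 and 4.39 FPKM in BDL BECs, against 135, 381 and 239 FPKM in BDL Kupffer-like cells. Hepatocyte markers summed to 202 to 857 FPKM in BDL BECs and 1620.4 to 5459 FPKM in BDL Kupffer-like cells, and their part in the Hamp result was not tested. In the cholesterol efflux and LXR list, 5 of 12 tested were higher in Kupffer-like cells and none in BECs (median -1.75), and 8 without both replicates 3. The exporter Abcg1 had 7.18, 6.41 and 9.06 FPKM in BDL BECs, against 38.2, 62.1 and 35.3 FPKM in BDL Kupffer-like cells. Apoc1, a small apolipoprotein, had 31.3, 36.2 and 22.2 FPKM in BDL BECs, against 550.0, 649 and 262 FPKM in BDL Kupffer-like cells. Apoe, the abundant lipoprotein ligand, had 2119, 2025 and 958 FPKM in BDL BECs, against 8872, 9810.0 and 1826 FPKM in BDL Kupffer-like cells. The groups of Apoe overlapped, with replicate 3 of the Kupffer-like cells below 2 of the BECs libraries, and it was not called.

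Of 14 genes of lipid- and scar-associated macrophages, a state described in fibrotic liver, 3 were higher in BECs and 4 in Kupffer-like cells (median -0.93). These were 21.4% and 28.6%, against 17.8% and 14% of all genes. The 3 became 1 without BDL BECs 1. The 4 became 2 without BDL BECs 2, BDL BECs 3 or BDL Kupffer-like cells 1, 1 without BDL Kupffer-like cells 2 and 7 without BDL Kupffer-like cells 3. Those higher in BECs were Spp1, Cd63 (1.50, call lost without BDL BECs 1) and Cd9 (1.49, call lost without BDL BECs 1 or 2), which epithelial cells also make. Trem2, the lipid receptor of these macrophages, had 8.44, 7.15 and 2.64 FPKM in BDL BECs, against 18.6, 19.9 and 10.5 FPKM in BDL Kupffer-like cells and was not called. Cd36, a fatty acid transporter, was higher in Kupffer-like cells with 23.5, 18.6 and 43.2 FPKM in BDL BECs, against 207, 130.5 and 78.6 FPKM in BDL Kupffer-like cells, and so was Gpnmb (-1.94, call lost without BDL BECs 3 or BDL Kupffer-like cells 1 or 2). Among 12 monocyte genes, 3 were higher in Kupffer-like cells, among them Itgam (-1.65) and Plac8 (-2.65), and none was higher in BECs. The 3 were 25%, against 14% of all genes. Without both replicates 3, 5 were higher in Kupffer-like cells. Ccr2, the receptor that brings monocytes into the liver, had 12.1, 14.6 and 4.82 FPKM in BDL BECs, against 20.6, 15.5 and 27.4 FPKM in BDL Kupffer-like cells and was not called.

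Of 12 MHC class II presentation genes, 2 were higher in Kupffer-like cells, a share near that of all genes, none was higher in BECs, and the median was -0.16, which turned to 0.09 when libraries were scaled to the same FPKM sum. H2-Ab1 had 682, 519 and 184 FPKM in BDL BECs, against 378, 574 and 347 FPKM in BDL Kupffer-like cells, with a log2 fold change of -0.07 (95% interval -1.34 to 1.20). Cd74, the invariant chain, had 2161, 1892 and 711 FPKM in BDL BECs, against 1391, 2274 and 1186 FPKM in BDL Kupffer-like cells and a log2 fold change of -0.12 (95% interval -1.36 to 1.12). BDL BECs 3 was the lowest of all 6 libraries for both. The intervals are wide and do not show that the levels are alike. The genes called were Cd80, a co-stimulator (-1.29, call lost without BDL BECs 2 or 3 or BDL Kupffer-like cells 1, 2 or 3), and Ifi30, a lysosomal thiol reductase (-2.42, call lost without BDL BECs 2 or 3 or BDL Kupffer-like cells 1 or 2). B and plasma cell genes, which include other users of MHC class II, summed to 258, 422 and 2257 FPKM in BDL BECs 1 to 3 and 362, 356 and 729 FPKM in BDL Kupffer-like cells 1 to 3. Of 6 such genes tested, 0 were called by limma, 0 had an unadjusted p under 0.05 and 0 were called by limma voom on recovered reads. General macrophage genes summed to 3463, 2855 and 1331 FPKM in BDL BECs 1 to 3, lowest in the library where H2-Ab1 and Cd74 were lowest. In BDL Kupffer-like cells 1 to 3 they summed to 21612, 16952 and 5982 FPKM. The part of either list in the MHC class II values was not tested.

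Of 20 complement genes, 7 were higher in Kupffer-like cells and 1 in BECs (median -0.53). These were 35% and 5%, against 14% and 17.8% of all genes. The 7 became 3 without any 1 of the BECs libraries, 4 without BDL Kupffer-like cells 1 or 2, and 9 without BDL Kupffer-like cells 3, and the 1 became 3 without BDL Kupffer-like cells 2 or with libraries scaled to the same FPKM sum. Cfp (properdin), which stabilises the alternative pathway convertase, had 47.3, 33.5 and 25.9 FPKM in BDL BECs, against 1446, 1154 and 232 FPKM in BDL Kupffer-like cells (log2 fold change -4.36 ± 0.71 (SE), limma adjusted p = 0.0059). Serping1, the C1 inhibitor, was the gene higher in BECs, with 242, 128 and 179 FPKM in BDL BECs, against 49.3, 71.9 and 32.6 FPKM in BDL Kupffer-like cells. C3, the central component, had 764, 748 and 543 FPKM in BDL BECs, against 161, 426 and 337 FPKM in BDL Kupffer-like cells and was not called (log2 fold change 1.25, limma adjusted p = 0.059).

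Of 17 pattern recognition genes tested, 7 were higher in Kupffer-like cells and none in BECs (median -1.01). Tlr8, a sensor of RNA in endosomes, had 1.45, 2.08 and 0.881 FPKM in BDL BECs, against 29.9, 41.4 and 9.65 FPKM in BDL Kupffer-like cells, and Tlr13, another, had a log2 fold change of -2.60. Nod1 (-1.01), Tlr1 (-1.11) and Tlr6 (-1.45), which sense bacterial wall parts, were higher in Kupffer-like cells as well. Tlr4, the lipopolysaccharide receptor, had 2.59, 2.40 and 2.62 FPKM in BDL BECs, against 11.5, 19.1 and 5.61 FPKM in BDL Kupffer-like cells (call lost without BDL BECs 1, 2 or 3 or BDL Kupffer-like cells 1). Tlr2 had 130.1, 118 and 38.4 FPKM in BDL BECs, against 65.7, 55.7 and 68.1 FPKM in BDL Kupffer-like cells. Nlrp3, the inflammasome sensor, had 83.3, 98.3 and 70.3 FPKM in BDL BECs, against 69.0, 155 and 104 FPKM in BDL Kupffer-like cells. Neither Tlr2 nor Nlrp3 was called. Interferon response genes were higher in Kupffer-like cells in 8 of 20 and higher in BECs in none (median -0.68), and the 8 became 4 without BDL BECs 2 or 3 and 5 with libraries scaled to the same FPKM sum. Irf7, the factor that amplifies type I interferon, had 9.53, 7.52 and 5.01 FPKM in BDL BECs, against 113, 79.3 and 43.5 FPKM in BDL Kupffer-like cells (log2 fold change -3.19 ± 0.39 (SE), limma adjusted p = 0.0022), and Oas2 had a log2 fold change of -2.10. Ifit1, a standard interferon target, had 25.7, 22.2 and 2.95 FPKM in BDL BECs, against 3.73, 1.85 and 4.12 FPKM in BDL Kupffer-like cells and was not called.

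Of 23 chemokines tested, 5 were higher in BECs and 3 in Kupffer-like cells, with a median of 0.99. These were 21.7% and 13.0%, near the 17.8% and 14% of all genes. The number higher in BECs was 3 without BDL BECs 1, 8 without BDL BECs 3 and 11 without both replicates 3, and it was 8 or 9 under other scalings of the libraries. Cx3cl1 (fractalkine), a membrane-bound chemokine for monocytes, had 35.8, 27.6 and 18.8 FPKM in BDL BECs, against 0.697, 2.22 and 0.163 FPKM in BDL Kupffer-like cells (log2 fold change 3.89 ± 0.42 (SE), limma adjusted p = 0.0014). Ccl20, which attracts CCR6-bearing lymphocytes, had 12.6, 25.9 and 2.74 FPKM in BDL BECs, against 0, 0 and 0.0376 FPKM in BDL Kupffer-like cells. Cxcl5, a neutrophil attractant, had 40.5, 43.0 and 12.3 FPKM in BDL BECs, against 0.313, 3.28 and 2.72 FPKM in BDL Kupffer-like cells. BDL BECs 3 was the lowest BECs library for each of these genes. The 2 others were Cxcl10 (1.52, call lost without BDL BECs 1 or 2 or BDL Kupffer-like cells 1, 2 or 3) and Cxcl12 (1.32, call lost without BDL BECs 1, 2 or 3 or BDL Kupffer-like cells 2).

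Kupffer-like cells were higher for Ccl6, with 33.8, 29.9 and 51.3 FPKM in BDL BECs, against 1251, 1113 and 269 FPKM in BDL Kupffer-like cells (log2 fold change -4.24 ± 0.62 (SE), limma adjusted p = 0.0040), for Ccl24, an eosinophil attractant (-4.38), and for Ccl9 (-2.55, call lost without BDL BECs 2 or 3 or BDL Kupffer-like cells 1 or 2). Ccl2, the main monocyte attractant, had 352, 521 and 202 FPKM in BDL BECs, against 99.5, 190.2 and 62.7 FPKM in BDL Kupffer-like cells. Its groups did not overlap, and it was not called (limma adjusted p = 0.053). Cxcl13, a B cell attractant, ranged over 0.380, 1.52 and 14.6 FPKM in BDL BECs, against 1775, 126 and 13.0 FPKM in BDL Kupffer-like cells, the widest spread within Kupffer-like cells of any gene at a mean of at least 10 FPKM there. Cxcl2, Ccl3 and Ccl4 were abundant in both cell types and not called. Cxcl2 had 582, 457 and 367 FPKM in BDL BECs, against 623, 606 and 408 FPKM in BDL Kupffer-like cells. Of 14 chemokine receptors tested, 3 were higher in Kupffer-like cells and none in BECs (median -0.53). The 3 were 21.4%, against 14% of all genes, and became 1 without BDL BECs 2 and 5 with quantile normalization. Without BDL Kupffer-like cells 3, 2 receptors were called higher in BECs. The receptors higher in Kupffer-like cells included Cxcr2 (-2.43) and Ackr2 (-1.78, call lost without BDL BECs 1, 2 or 3). Cxcr2 is also a neutrophil gene, and of 11 neutrophil genes tested 5 were higher in Kupffer-like cells, with a list sum of 325 to 515 FPKM in BDL BECs and 894 to 2478 FPKM in BDL Kupffer-like cells. The 5 became 1 without BDL BECs 1, 3 without BDL BECs 2, 2 without BDL BECs 3 and 3 without BDL Kupffer-like cells 2, and 1 (same FPKM sum) to 3 (quantile normalization) under other scalings. The part of neutrophils in the Cxcr2 result was not tested.

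Cytokines were higher in BECs in 8 of 20 tested and in Kupffer-like cells in 2 (median 0.39), and the 8 became 3 without BDL Kupffer-like cells 2, 4 without BDL BECs 1, and 5 without BDL BECs 2, BDL BECs 3 or BDL Kupffer-like cells 1. The 2 became 0 or 1 without any 1 of these 5 libraries. With all libraries the shares were 40% and 10%, against 17.8% and 14% of all genes. Lif, an IL-6 family cytokine, had 47.1, 30.3 and 16.3 FPKM in BDL BECs, against 0.737, 1.10 and 3.14 FPKM in BDL Kupffer-like cells (log2 fold change 3.58 ± 0.47 (SE), limma adjusted p = 0.0028). Il23a, a subunit of IL-23, had 16.1, 22.5 and 10.3 FPKM in BDL BECs, against 0.726, 1.85 and 1.07 FPKM in BDL Kupffer-like cells. Il34, the second ligand of Csf1r, had 11.5, 8.59 and 4.84 FPKM in BDL BECs, against 1.46, 0.960 and 0.327 FPKM in BDL Kupffer-like cells. These 3 were called in every fit with a library left out. Csf1, the first ligand of Csf1r, had 41.0, 36.0 and 22.7 FPKM in BDL BECs, against 5.47, 7.61 and 20.4 FPKM in BDL Kupffer-like cells. Its highest Kupffer-like library, replicate 3, came close to the lowest BECs library, and its call was lost without BDL BECs 1, 2 or 3 or BDL Kupffer-like cells 1 or 2. Tnf had 284, 447 and 133 FPKM in BDL BECs, against 108, 353 and 92.6 FPKM in BDL Kupffer-like cells. Il6 had 39.3, 23.9 and 29.5 FPKM in BDL BECs, against 33.6, 42.7 and 11.4 FPKM in BDL Kupffer-like cells. Il1b had 484, 381 and 221 FPKM in BDL BECs, against 913, 934 and 456 FPKM in BDL Kupffer-like cells. None of the 3 inflammatory cytokines was called, and each overlapped between the groups. Il18 (-2.13, call lost without BDL BECs 1 or 2 or BDL Kupffer-like cells 1) and Il15 (-1.21, call lost without BDL BECs 1, 2 or 3 or BDL Kupffer-like cells 1 or 2) were higher in Kupffer-like cells.

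Receptors for cytokines were higher in Kupffer-like cells in 9 of 23 tested and in BECs in 4 (median -0.53), and the 9 became 5 without BDL BECs 2 or BDL Kupffer-like cells 2. The 9 were 39.1%, against 14% of all genes, and the 4 were 17.4%, near the 17.8% of all genes. BECs were higher for Tnfrsf12a, the receptor of TWEAK that drives ductular growth, with 166, 168 and 115 FPKM in BDL BECs, against 12.2, 13.2 and 6.83 FPKM in BDL Kupffer-like cells (log2 fold change 3.70 ± 0.29 (SE), limma adjusted p = 5.0e-04). They were also higher for the IL-17 receptor chains Il17rc (1.95) and Il17re (2.26), and for Osmr (1.30, call lost without BDL BECs 1, 2 or 3). Il10ra (-1.65), Il6ra (-1.66) and Csf2rb (-2.16, call lost without BDL BECs 2 or 3) were higher in Kupffer-like cells. Il6ra, the IL-6 binding chain, had 4.84, 4.39 and 4.75 FPKM in BDL BECs, against 15.1, 19.3 and 16.6 FPKM in BDL Kupffer-like cells. Its signalling partner Il6st had 36.1, 34.4 and 38.1 FPKM in BDL BECs, against 54.3, 49.8 and 33.8 FPKM in BDL Kupffer-like cells and was not called.

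Of 24 growth factors tested, 15 were higher in BECs and 1 was higher in Kupffer-like cells (median 1.71). The 1 became 2 without BDL BECs 1, BDL Kupffer-like cells 2 or BDL Kupffer-like cells 3. Pdgfb, a mitogen for stellate cells and pericytes, had 91.7, 81.0 and 48.2 FPKM in BDL BECs, against 2.68, 4.34 and 5.25 FPKM in BDL Kupffer-like cells (log2 fold change 3.86 ± 0.31 (SE), limma adjusted p = 5.3e-04). Edn1 (endothelin), which contracts stellate cells, had 46.7, 35.9 and 35.5 FPKM in BDL BECs, against 1.17, 1.26 and 0.524 FPKM in BDL Kupffer-like cells (log2 fold change 4.36 ± 0.21 (SE), limma adjusted p = 1.4e-04). Gas6, a bridge between dying cells and TAM receptors, had 405, 327 and 494 FPKM in BDL BECs, against 30.2, 53.8 and 35.6 FPKM in BDL Kupffer-like cells. No library of one cell type came near the other in these genes. Tgfb2 had 16.4, 16.7 and 8.87 FPKM in BDL BECs, against 0.121, 0.209 and 0.636 FPKM in BDL Kupffer-like cells. Tgfb1, the isoform most linked to fibrosis, had 37.9, 19.5 and 17.4 FPKM in BDL BECs, against 55.4, 34.6 and 53.3 FPKM in BDL Kupffer-like cells and was not called. Wnt7b (3.51) and Wnt7a (2.52), Areg (3.35), Btc (1.88) and Tgfa (1.54), Pdgfa (2.34), Pdgfd (3.17) and Vegfa (2.11) were higher in BECs as well. Bmp2 was the gene higher in Kupffer-like cells, with 9.76, 6.58 and 5.88 FPKM in BDL BECs, against 118, 29.6 and 52.5 FPKM in BDL Kupffer-like cells. Bmp2 is also on the sinusoidal endothelial list, of which 10 of 12 genes were higher in Kupffer-like cells, and the part of those cells was not tested.

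Receptors for growth factors were higher in BECs in 13 of 24 and in Kupffer-like cells in 3 (median 1.09). The 13 were 54.2%, against 17.8% of all genes, and the 3 were 12.5%, near the 14% of all genes. The FGF receptors Fgfr3 (3.90), Fgfr4 (3.51), Fgfr2 (2.53) and Fgfr1 (1.49) were all higher in BECs. Met, the receptor of HGF, had 11.7, 9.93 and 8.53 FPKM in BDL BECs, against 0.653, 2.50 and 2.43 FPKM in BDL Kupffer-like cells. Erbb2 (2.47) and Erbb3 (2.48) were higher in BECs. Egfr had 5.39, 3.98 and 6.81 FPKM in BDL BECs, against 1.43, 4.75 and 1.26 FPKM in BDL Kupffer-like cells and was not called. The 3 higher in Kupffer-like cells were Mertk and Axl, receptors of Gas6, and the endothelial Kdr (-2.28). Mertk had 8.74, 10.5 and 6.53 FPKM in BDL BECs, against 72.6, 117 and 33.2 FPKM in BDL Kupffer-like cells. For Axl (-1.45) the call was lost without BDL BECs 2 or 3 or BDL Kupffer-like cells 1 or 2.

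**Figure D3:**
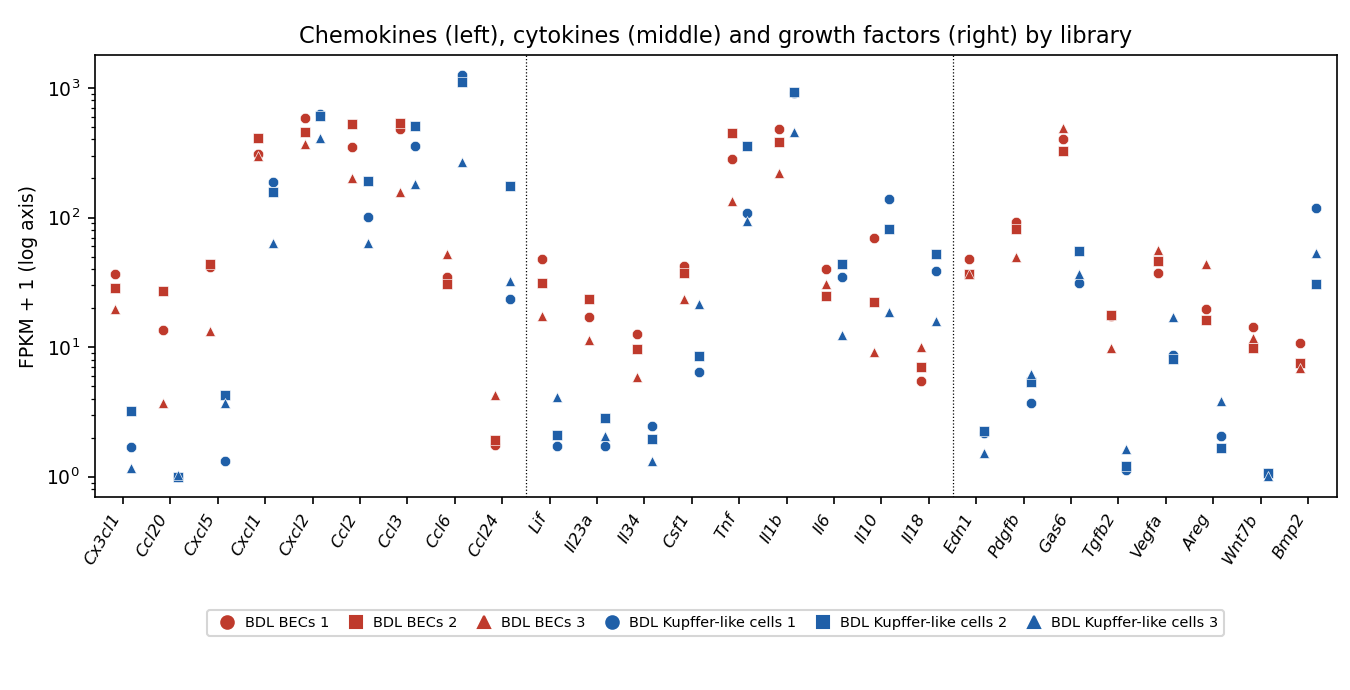
FPKM + 1 (logarithmic axis) of chemokines, cytokines and growth factors in the 3 BDL BECs libraries (red, left of each pair) and the 3 BDL Kupffer-like libraries (blue, right), with 1 symbol per library. Every BECs point lies above every Kupffer-like point for Cx3cl1, Lif, Edn1, Pdgfb and Gas6, every Kupffer-like point lies above every BECs point for Ccl6 and Bmp2, and Tnf and Il6 overlap.

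Ligands and receptors were read together over 49 pairs, chosen with earlier results known. Of 46 different ligands tested, 21 were higher in BECs and 2 in Kupffer-like cells, and of 38 receptors tested, 6 were higher in BECs and 13 in Kupffer-like cells. Over all genes tested, 17.8% were higher in BECs and 14% in Kupffer-like cells, and the 6 receptors were near the first share. In 8 pairs the ligand was higher in BECs and the receptor in Kupffer-like cells. These were Csf1 and Il34 with Csf1r, Cxcl5 with Cxcr2, Lif with Lifr, Gas6 with Axl and with Mertk, Icam1 with Itgb2, and Cd200 with Cd200r1. No pair had the ligand higher in Kupffer-like cells and the receptor higher in BECs. Only the 2 ligands Il18 and Cd47 were higher in Kupffer-like cells, so few of the chosen pairs could take that form. In 5 pairs the receptor, among them Tnfrsf12a, Met and Osmr, was higher in BECs and the ligand was not called. The log2 fold changes of these 5 ligands ran from -1.75 to -0.00065. In 8 pairs the receptor was higher in Kupffer-like cells and the ligand was not called. The calls of Csf1 and Axl, as given above, did not hold with each library left out. Icam1, the leukocyte adhesion molecule, had 155, 198 and 196 FPKM in BDL BECs, against 54.3, 69.0 and 39.0 FPKM in BDL Kupffer-like cells. Its receptor subunit Itgb2 had 48.2, 38.0 and 34.6 FPKM in BDL BECs, against 277, 243 and 224 FPKM in BDL Kupffer-like cells. The groups did not overlap in either gene. Cd200, an inhibitory signal for myeloid cells, had 13.3, 12.0 and 14.1 FPKM in BDL BECs, against 3.04, 3.07 and 2.61 FPKM in BDL Kupffer-like cells. Its receptor Cd200r1 had 1.52, 1.05 and 0.668 FPKM in BDL BECs, against 7.92, 9.69 and 4.23 FPKM in BDL Kupffer-like cells. In the pair Pdgfb with Pdgfrb both genes were higher in BECs. Pdgfrb, a pericyte and stellate receptor, had 27.0, 19.0 and 18.0 FPKM in BDL BECs, against 2.21, 1.59 and 1.17 FPKM in BDL Kupffer-like cells. In the pair Cd47 with Sirpa, the signal that stops phagocytosis, both were higher in Kupffer-like cells (-1.22 and -1.59), and for Cd47 the call was lost without BDL BECs 1, 2 or 3 or BDL Kupffer-like cells 1 or 2. In 11 pairs neither gene was called, among them Ccl2 with Ccr2 and C3 with C3ar1. A transcript level in either cell type does not measure contact or binding.

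**Figure D4:**
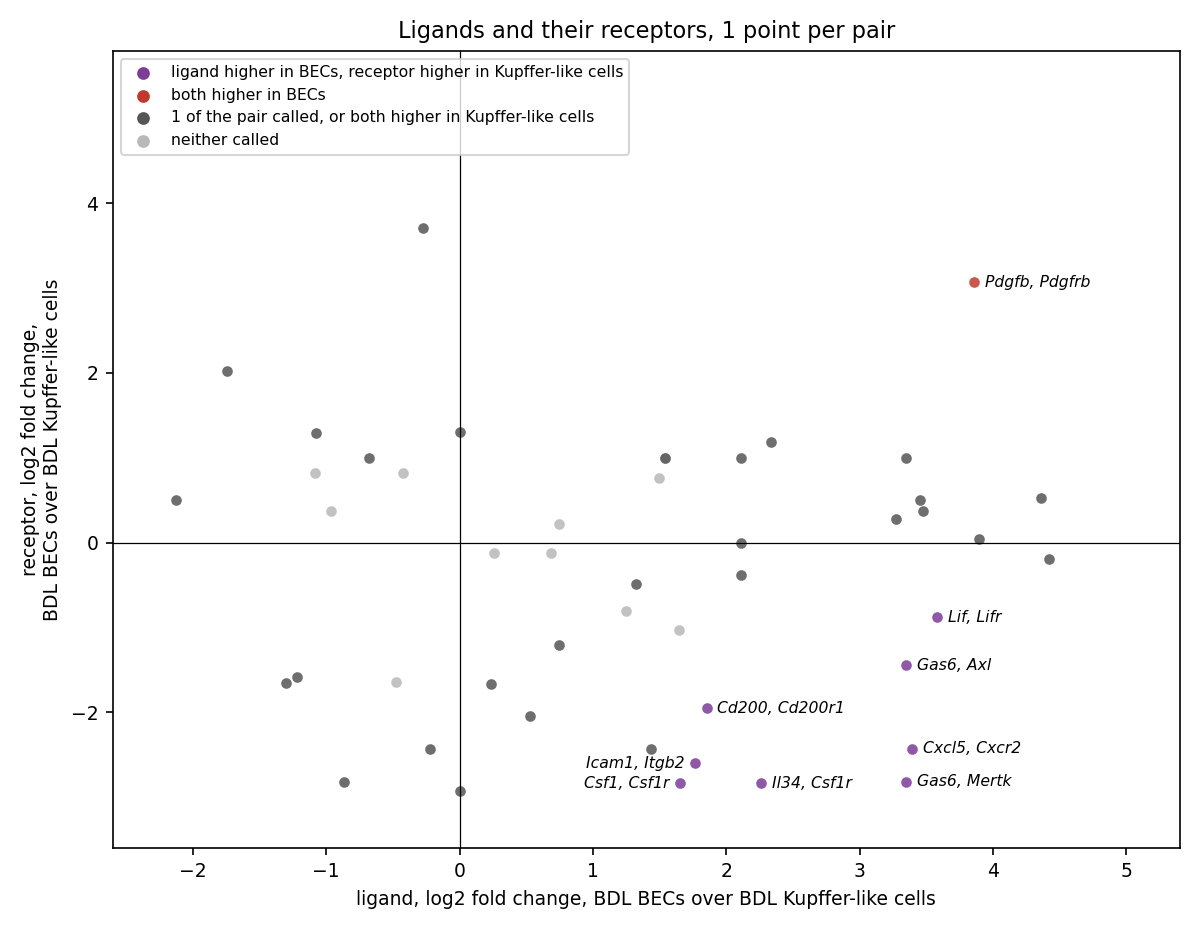
Log2 fold change of the receptor (vertical axis) against that of its ligand (horizontal axis), BDL BECs over BDL Kupffer-like cells, 1 point per pair with both genes tested (48 of 49). The 8 pairs with the ligand higher in BECs and the receptor higher in Kupffer-like cells lie to the lower right, and 1 pair with both genes higher in BECs, Pdgfb with Pdgfrb, lies to the upper right.

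Collagen and matrix genes were higher in BECs in 18 of 24 and in Kupffer-like cells in none, with a median of 1.68. Col1a1 had 431, 254 and 266 FPKM in BDL BECs, against 26.3, 13.4 and 37.4 FPKM in BDL Kupffer-like cells (log2 fold change 3.64 ± 0.41 (SE), limma adjusted p = 0.0016). Col3a1 had 592, 325 and 280.4 FPKM in BDL BECs, against 45.8, 90.1 and 57.0 FPKM in BDL Kupffer-like cells. Mmp2, a gelatinase, had 188, 67.5 and 158 FPKM in BDL BECs, against 13.2, 15.2 and 4.48 FPKM in BDL Kupffer-like cells. For each the groups stood apart, with BDL BECs 1 the highest library. Timp1, a protease inhibitor of scar tissue, had 167, 48.5 and 80.9 FPKM in BDL BECs, against 74.6, 59.3 and 8.48 FPKM in BDL Kupffer-like cells and was not called. The stellate and fibroblast markers include Col1a1 and Col3a1 themselves, so the lists overlap and are not separate results. Of 13 tested, 8 were higher in BECs and none in Kupffer-like cells (median 2.59, 3 in Kupffer-like cells without BDL Kupffer-like cells 3), and their sum was 1105 to 1929.9 FPKM in BDL BECs and 203 to 409 FPKM in BDL Kupffer-like cells. They included the pericyte gene Rgs5, with 206, 149.8 and 62.7 FPKM in BDL BECs, against 5.87, 4.37 and 0.940 FPKM in BDL Kupffer-like cells, the myofibroblast actin Acta2 (3.40) and desmin, Des (2.46). Lrat, which stores vitamin A in stellate cells, had 0.775, 1.30 and 0.990 FPKM in BDL BECs, against 4.93, 2.55 and 0.439 FPKM in BDL Kupffer-like cells, and Reln was low in both groups too. No marker of this list was at 0 in every library of a group. The part of stellate and fibroblast RNA in the collagen result, and in the other genes higher in BECs, was not tested.

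Sinusoidal endothelial genes were higher in Kupffer-like cells in 10 of 12 and higher in BECs in none (median -2.96), with sums of 93.3 to 144 FPKM in BDL BECs and 479 to 1328 FPKM in BDL Kupffer-like cells. Stab2, the hyaluronan receptor of these endothelial cells, had 1.38, 2.32 and 0.527 FPKM in BDL BECs, against 72.8, 50.2 and 60.2 FPKM in BDL Kupffer-like cells (log2 fold change -4.74 ± 0.31 (SE), limma adjusted p = 2.9e-04). Clec4g had 3.30, 5.16 and 1.34 FPKM in BDL BECs, against 312, 102 and 91.7 FPKM in BDL Kupffer-like cells. Hepatocyte genes were higher in Kupffer-like cells in 9 of 16 (median -2.91), in 4 without BDL BECs 2 or without BDL Kupffer-like cells 2, and in 5 without BDL BECs 3. The 9 were 56.25%, against 14% of all genes. Tat, an amino acid enzyme, had 14.1, 7.72 and 2.39 FPKM in BDL BECs, against 156, 269.9 and 235 FPKM in BDL Kupffer-like cells. Alb, serum albumin, had 392, 292 and 69.0 FPKM in BDL BECs, against 613, 2112 and 1623 FPKM in BDL Kupffer-like cells (call lost without BDL BECs 1, 2 or 3 or BDL Kupffer-like cells 2 or 3). Of 5 erythroid genes tested, 4 globin genes were called higher in Kupffer-like cells, and none of them was called without BDL BECs 1, 2 or 3, without BDL Kupffer-like cells 1, without both replicates 3, or with libraries scaled to the same FPKM sum or to recovered reads. With quantile normalization 1 was called. The globin copies are near-identical, so reads may be split between them. Mesothelial genes were higher in Kupffer-like cells in 4 of 7 tested (57.1%, against 14% of all genes), among them Upk1b (-2.89), and none was called higher in BECs. The other 3 had positive fold changes, and Msln (mesothelin) had 27.3, 16.0 and 140.3 FPKM in BDL BECs, against 25.7, 42.4 and 8.18 FPKM in BDL Kupffer-like cells. The list summed to 26.3 to 293 FPKM in BDL BECs and 38.5 to 87.2 FPKM in BDL Kupffer-like cells, and the highest of the 6 sums was that of BDL BECs 3. T and NK cell genes were higher in Kupffer-like cells in 3 of 11 tested (Klrb1c, Gzmb and Gzma, with log2 fold changes of -1.46, -2.45 and -3.19), and none was higher in BECs. The 3 were 27.3%, against 14% of all genes. The 3 became 0 without BDL BECs 1, 2 or 3 and 1 without BDL Kupffer-like cells 2 or without both replicates 3. The median of that list was -0.17, and 0.02 with libraries scaled to the same FPKM sum. The part of these markers in the other Kupffer-like differences was not tested.

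**Figure D5:**
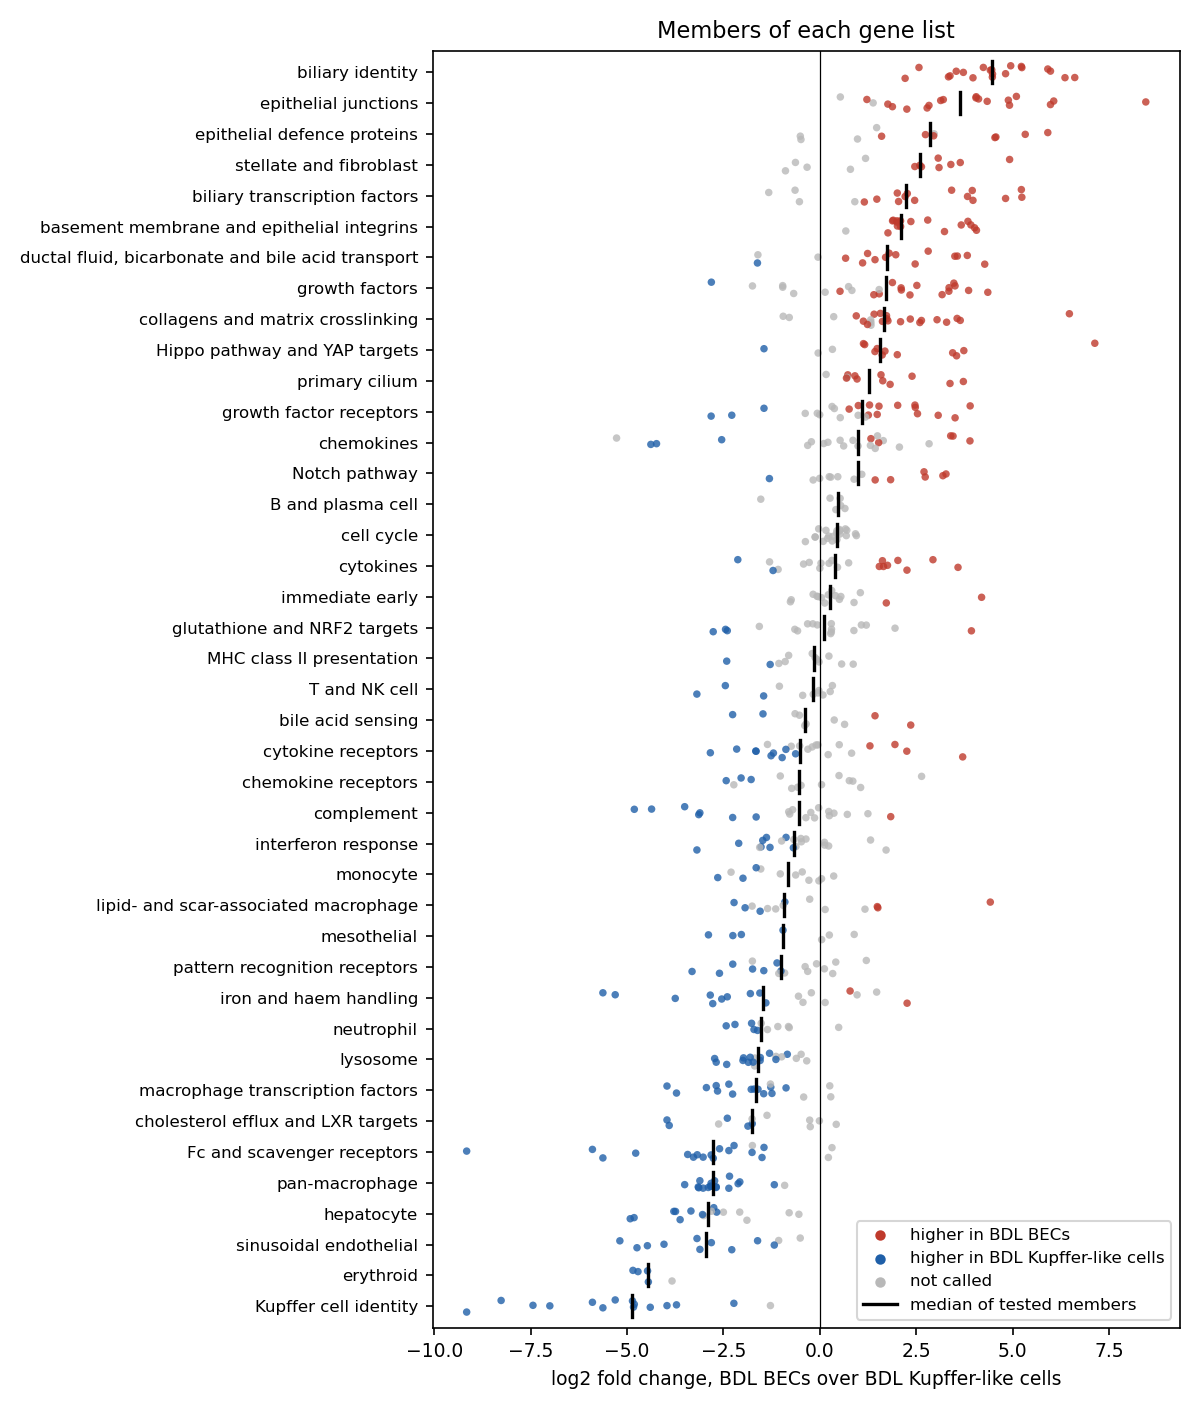
Log2 fold change of BDL BECs over BDL Kupffer-like cells for every tested gene of each list, 1 point per gene (red higher in BECs, blue higher in Kupffer-like cells, grey not called), with a black line at the median of the list. Biliary identity has 20 of 20 genes higher in BECs, Kupffer cell identity 14 of 15 higher in Kupffer-like cells, and the cell cycle list has 0 called.

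Of 21 cell cycle genes tested, 0 were called by limma in either direction, with a median of 0.44. Of these, 2 had an unadjusted p under 0.05, and limma voom on recovered reads called 0. Without BDL Kupffer-like cells 3, 6 of them were called higher in BECs. Mki67, the proliferation antigen, had 11.4, 13.1 and 5.29 FPKM in BDL BECs, against 1.93, 6.35 and 10.9 FPKM in BDL Kupffer-like cells. Ccnd1, which starts the cycle, had 29.1, 33.6 and 19.5 FPKM in BDL BECs, against 9.28, 10.5 and 24.2 FPKM in BDL Kupffer-like cells. For both, BDL Kupffer-like cells 3 was the highest of its group and lay inside the BECs range. Of 16 immediate early genes, 2 were higher in BECs and none in Kupffer-like cells (median 0.26). The 2 were 12.5% of the list, against 17.8% of all genes, and became 5 with quantile normalization. Fosl1, the AP-1 member FRA-1, had 88.9, 99.2 and 115 FPKM in BDL BECs, against 2.77, 2.36 and 12.4 FPKM in BDL Kupffer-like cells (log2 fold change 4.19 ± 0.53 (SE), limma adjusted p = 0.0025). Atf3, a stress factor, had 729.6, 1068 and 893 FPKM in BDL BECs, against 249.8, 396 and 194 FPKM in BDL Kupffer-like cells. Fos, Jun and Egr1 were abundant in both groups. Fos had 950.3, 1163 and 1269.6 FPKM in BDL BECs, against 1614, 1641 and 617 FPKM in BDL Kupffer-like cells, with a log2 fold change of -0.07 (95% interval -1.13 to 0.98).

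Among 18 glutathione and NRF2 target genes, 1 was higher in BECs and 3 were higher in Kupffer-like cells (median 0.11). The 3 were 16.7%, near the 14% of all genes. The 1 became 4 without BDL Kupffer-like cells 3, 5 without both replicates 3 and 2 with quantile normalization. Gpx2, an epithelial peroxidase, had 6.30, 18.2 and 38.1 FPKM in BDL BECs, against 0, 0.292 and 0.199 FPKM in BDL Kupffer-like cells. Gpx1, the general one, had 269, 271 and 177 FPKM in BDL BECs, against 2109, 1634 and 1189 FPKM in BDL Kupffer-like cells. Gsr, which regenerates glutathione, was higher in Kupffer-like cells (-2.45). Of 10 bile acid sensing genes tested, 2 were higher in BECs and 2 in Kupffer-like cells (median -0.37), shares near the 17.8% and 14% of all genes. The first became 1 without BDL BECs 3, BDL Kupffer-like cells 2 or both replicates 3 and with quantile normalization, and the second became 1 without BDL BECs 2 or 3 or BDL Kupffer-like cells 1 or 2. Gpbar1, the membrane bile acid receptor TGR5, had 4.21, 1.38 and 2.71 FPKM in BDL BECs, against 0.651, 0.187 and 0.199 FPKM in BDL Kupffer-like cells (call lost without BDL BECs 3 or BDL Kupffer-like cells 2). Sult2b1, a sterol sulfotransferase, was higher in BECs (2.36). Nr1h4, the nuclear bile acid receptor FXR, had 4.53, 6.88 and 3.91 FPKM in BDL BECs, against 5.14, 6.24 and 13.4 FPKM in BDL Kupffer-like cells and was not called.

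Whether these differences were the same without ligation was tested over the 12 libraries, as BECs minus Kupffer-like cells in BDL minus the same in Sham. Of 14874 genes tested, 520 (3.5%) were called by limma, 200 positive and 320 negative. The count was 1780 without BDL Kupffer-like cells 3 and 1697 without both BDL replicates 3. It was 38 without Sham Kupffer-like cells 3, 40 without Sham BECs 1 and 44 without Sham Kupffer-like cells 2, and 207 to 344 without BDL BECs 1 or 2, BDL Kupffer-like cells 2, Sham Kupffer-like cells 1 or Sham BECs 2 or 3. The other 2 fits with a library left out gave 465 and 735. Pdgfb averaged 73.6 ± 22.7 FPKM in BDL BECs and 4.09 ± 1.31 FPKM in BDL Kupffer-like cells, against 25.9 ± 5.33 FPKM in Sham BECs and 7.75 ± 0.449 FPKM in Sham Kupffer-like cells (SD, n = 3 each). The cell type difference in Pdgfb was wider after ligation, by 2.25 ± 0.37 (SE), limma adjusted p = 0.020. Lamb3 averaged 19.8 ± 0.982 FPKM in BDL BECs and 0.425 ± 0.480 FPKM in BDL Kupffer-like cells, against 4.94 ± 0.723 FPKM in Sham BECs and 0.381 ± 0.0469 FPKM in Sham Kupffer-like cells (SD, n = 3 each), and its difference was wider by 1.82 ± 0.28 (SE), limma adjusted p = 0.017. In both genes every BDL BECs library was above every Sham BECs library and all Kupffer-like libraries were lower than the BECs. The call of Pdgfb was lost without Sham BECs 1 or Sham Kupffer-like cells 2 or 3, and that of Lamb3 without Sham BECs 1 or Sham Kupffer-like cells 2 or 3. Il1a averaged 107 ± 33.2 FPKM in BDL BECs and 155 ± 82.9 FPKM in BDL Kupffer-like cells, against 19.6 ± 2.78 FPKM in Sham BECs and 169 ± 36.9 FPKM in Sham Kupffer-like cells, a change of 2.60 ± 0.57 (SE), limma adjusted p = 0.039, called in 4 of the 12 fits with a library left out. Nrp1, a co-receptor of VEGF, averaged 9.08 ± 1.36 FPKM in BDL BECs and 12.2 ± 2.40 FPKM in BDL Kupffer-like cells, against 12.5 ± 1.49 FPKM in Sham BECs and 50.7 ± 1.79 FPKM in Sham Kupffer-like cells, a change of 1.56 ± 0.22 (SE), limma adjusted p = 0.015, and was called in 12 of the 12 fits.

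In the negative direction, Krt8 averaged 1730.0 ± 252 FPKM in BDL BECs and 80.8 ± 31.3 FPKM in BDL Kupffer-like cells, against 2554 ± 295 FPKM in Sham BECs and 11.7 ± 8.21 FPKM in Sham Kupffer-like cells (SD, n = 3 each), a change of -3.43 ± 0.63 (SE), limma adjusted p = 0.026, whose call was lost without Sham BECs 1 or Sham Kupffer-like cells 2. Pigr averaged 11.4 ± 6.19 FPKM in BDL BECs and 5.17 ± 2.99 FPKM in BDL Kupffer-like cells, against 206 ± 101 FPKM in Sham BECs and 4.68 ± 2.94 FPKM in Sham Kupffer-like cells, a change of -4.23 ± 0.80 (SE), limma adjusted p = 0.028, whose call was lost without Sham BECs 1, Sham Kupffer-like cells 2 or 3, BDL Kupffer-like cells 2. The level of Pigr in BDL BECs was below that of Sham BECs in every library. The 5 largest negative changes among named genes were in genes that hepatocytes express, Saa2, Apoa1, Apoa2, Fgb and Fgg, with -5.86 to -5.16. Each was called in 3 to 6 of the 12 fits. Apoa1 averaged 25.5 ± 22.7 FPKM in BDL BECs and 228 ± 186 FPKM in BDL Kupffer-like cells, against 231 ± 109 FPKM in Sham BECs and 44.8 ± 25.1 FPKM in Sham Kupffer-like cells (SD, n = 3 each). The 16 hepatocyte markers summed to 202 to 857 FPKM in BDL BECs and 1620.4 to 5459 FPKM in BDL Kupffer-like cells, against 1842 to 4380.3 FPKM in Sham BECs and 552 to 1275 FPKM in Sham Kupffer-like cells. Apoa1, Apoa2, Fgb and Fgg are themselves among these markers, so the sums are not separate from their values. The part of hepatocyte RNA in these changes was not tested.

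Within each group, the 5 genes of widest spread on the log2 scale were taken among those at a mean of at least 10 FPKM. In BDL BECs they were Krt13, Krt4, Try4, Try5 and Prss2, each highest in BDL BECs 3. Krt13, a keratin of stratified epithelium, had 0, 0 and 963 FPKM in BDL BECs and was listed at 0 in all BDL Kupffer-like cells. Prss2, a trypsinogen, had 35.4, 0 and 578 FPKM in BDL BECs, against 0.143, 0 and 0.524 FPKM in BDL Kupffer-like cells. Try4 and Try5 are near-identical copies. In BDL Kupffer-like cells they were Cxcl13, Fabp1, BC018473, Acaa1b and Rps3a3. Fabp1 and Acaa1b were highest in BDL Kupffer-like cells 3, Cxcl13 in BDL Kupffer-like cells 1 and BC018473 in BDL Kupffer-like cells 2, and Rps3a3 was low in BDL Kupffer-like cells 1 alone of the 3. Fabp1, a fatty acid carrier of hepatocytes, had 1.58, 1.29 and 0 FPKM in BDL BECs, against 13.6, 1.70 and 243 FPKM in BDL Kupffer-like cells.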

How the data were processed

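Polyadenylated RNA was sequenced from 18 libraries, 3 in each of 6 groups that the labels define by cell type and treatment. Per the submitters' processing notes, the tools were CASAVA 1.8, fastp, HISAT2 2.0.5, featureCounts 1.5.0-p3 and DESeq2 1.20.0, with the build GRCm38 (mm10). The sources used here give neither the annotation release nor the strandedness of counting. Without strand, reads of overlapping genes cannot be told apart, and 35 of 269 named and located genes overlap another tested gene (Cd74, Cd9, Csf1r, Ctsb, Ctsw, Cxcl10, Dmbt1, Edn1, Erbb2, Fgfr2, Fosl1, Gas6, Gpx2, Gsr, Ifi30, Il10ra, Il18, Il1a, Il1b, Irf7, Lamb3, Lats2, Ltb, Masp1, Mertk, Mfap4, Mir142b, Pdgfa, Rps3a3, Slc4a2, Slc51a, Spp1, Stab2, Tead2 and Timp1), so their values are uncertain.

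The deposited table holds the authors' FPKM values for 54532 genes. Symbols, lengths and positions came from GENCODE M21. Reads were recovered as FPKM times length at the library size that gives whole numbers, and 97.6% to 98.1% of values below 200.0 reads were whole within 0.02 in the 6 BDL libraries. Depth was 15455406 to 17502177 recovered reads per library.

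Genes that reached an FPKM of 1 in 3 or more of the fitted libraries were tested on log2(FPKM + 1) with limma 3.58.1 in R 4.3.3 (eBayes with trend and robust, 2-sided). Calls were made at p under 0.05 after Benjamini-Hochberg adjustment over all genes tested. The script was tested on simulated data. Alternatives covered pseudocounts of 0.1 and 0.01, the filter, 3 scalings, the variance model, sex, a 2-fold threshold, limma voom on recovered reads, all 12 libraries in 1 model and each library left out. Leaving out both replicates 3 was added after seeing the data.

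Named genes were the 12 largest changes in each direction among called genes with a mean of at least 10 FPKM in the higher group and groups that do not overlap, members of 42 gene lists and 49 ligand and receptor pairs with the largest changes, the highest levels or a direction against their list, the 5 largest changes in each direction between BDL and Sham, and the 5 genes of widest spread in each group. For the difference between BDL and Sham, only called genes at a mean of at least 10 FPKM in their highest group were named. They included some called list members with large changes. The comparison, the lists and the pairs were chosen with earlier results of these data known. The remaining 6 libraries, of hepatocytes, were not used here. Some members of the lists are not reported here by name.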

Additional observations from a re-analysis of the deposited data

Results flagged for a closer look

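The difference between BECs and Kupffer-like cells was itself different in BDL and in Sham for 21 named genes, by limma's test of that difference over 12 libraries. All 21 were picked from the genes called by that test, so their calls follow from the choice. On the log2(FPKM + 1) scale, the BDL difference minus the Sham difference was 3.60 (Ltb), 3.59 (Reg3b), 3.35 (Mir142b), 3.05 (Ctsw) and 2.73 (Zfp683). These are the 5 largest positive changes among called genes at a mean of at least 10 FPKM in their highest group. Their BECs and Kupffer-like libraries also did not overlap in BDL, in Sham or in both, and predicted-gene and similar names were left out. The 5 largest negative changes were picked in the same way. The BDL difference minus the Sham difference was 2.60 (Il1a), 2.25 (Pdgfb), 1.82 (Lamb3), 1.56 (Nrp1) and 1.47 (Masp1), called list members with large changes. Negative values were -5.86 (Saa2), -5.71 (Apoa1), -5.28 (Apoa2), -5.18 (Fgb) and -5.16 (Fgg), the 5 largest, and -4.23 (Pigr), -3.53 (Gstm1), -3.43 (Krt8), -3.34 (Apoc1), -2.96 (Trf) and -2.87 (Krt18). Nrp1 was called in 12 of the 12 fits with a library left out, Krt8 in 10, Pdgfb, Lamb3, Apoc1 and Trf in 9 each, Pigr in 8 and the other 14 in 2 to 6.

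Ltb, a lymphotoxin subunit, averaged 46.4 ± 25.4 FPKM in BDL BECs and 12.0 ± 12.3 FPKM in BDL Kupffer-like cells, against 13.5 ± 5.75 FPKM in Sham BECs and 37.0 ± 3.23 FPKM in Sham Kupffer-like cells (SD, n = 3 each). BDL BECs were higher than Sham BECs in every library, and BDL Kupffer-like cells were lower than Sham Kupffer-like cells in every library. Reg3b was listed at 0 in all Sham Kupffer-like libraries and averaged 47.2 ± 47.0 FPKM in BDL BECs and 0.439 ± 0.338 FPKM in BDL Kupffer-like cells, against 1.06 ± 0.805 FPKM in Sham BECs. Mir142b overlaps Mir142hg, a gene on the other strand, so without strand its reads may belong to that gene. Trf, transferrin, averaged 7.59 ± 2.91 FPKM in BDL BECs and 56.5 ± 13.5 FPKM in BDL Kupffer-like cells, against 17.3 ± 8.45 FPKM in Sham BECs and 14.0 ± 2.21 FPKM in Sham Kupffer-like cells (SD, n = 3 each). Hepatocytes make transferrin and the 5 genes with the largest negative values. The hepatocyte marker sums of the 4 groups moved in the same directions, but Apoa1, Apoa2, Fgb and Fgg are among those markers. The sums are therefore not separate from these genes, and the part of hepatocyte RNA was not tested.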

How the results depend on the processing

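The counts of 2404 genes higher in BECs and 1894 higher in Kupffer-like cells stayed within 1.5 times under 8 of the 12 other settings that keep all libraries. Without a filter 1160 were higher in Kupffer-like cells, among 32711 genes tested. With FPKM of at least 5, 1365 were higher in BECs, among 7729 tested. With libraries scaled to the same FPKM sum 1122 were higher in Kupffer-like cells. Against a 2-fold threshold 640 were higher in BECs and 196 in Kupffer-like cells. On recovered reads limma voom called 2370 and 1848. With 1 library left out, 1730 to 3004 genes were higher in BECs and 962 to 2612 in Kupffer-like cells. The 520 genes whose difference changed with ligation became 318 and 287 at pseudocounts of 0.1 and 0.01, 13 without a filter, 244 with sex as a covariate, 1697 without both replicates 3, and 38 to 1780 with 1 library left out. With each library scaled to the same FPKM sum, log2 fold changes of reversed sign were 0.18 (Cd74), 0.23 (Ctsw), 0.085 (Cxcl2), 0.23 (Fos), 0.23 (H2-Ab1), 0.20 (Lats2) and 0.091 (Notch1). With libraries scaled to recovered reads, log2 fold changes of reversed sign were 0.033 (Cd74), 0.099 (Ctsw), 0.082 (Fos), 0.085 (H2-Ab1) and 0.083 (Lats2). After quantile normalization, log2 fold changes of reversed sign were 0.47 (Cd74), 0.054 (Cxcl2), 0.46 (Fos), 0.20 (Fth1), 0.24 (H2-Ab1) and 0.016 (Nlrp3). Without both replicates 3, log2 fold changes of reversed sign were 0.18 (Cd74), 0.73 (Ctsw), 0.35 (H2-Ab1), -0.29 (Il6), -0.020 (Jun), 0.48 (Mir142b) and -0.64 (Msln). With 1 library left out, log2 fold changes of genes that changed sign ran -1.70 to 1.95 (BC018473), -0.31 to 0.67 (Ccl3), -0.42 to 0.38 (Cd74), -0.38 to 0.60 (Ctsw), -0.54 to 0.17 (Fos), -0.45 to 0.49 (H2-Ab1), -0.31 to 0.60 (Il6), -0.28 to 1.08 (Itgax), -0.17 to 0.065 (Lats2), -0.75 to 0.29 (Mir142b), -0.0061 to 1.52 (Msln), -0.33 to 0.034 (Notch1), -0.033 to 0.62 (Notch2) and -0.89 to 2.49 (Xist). The causes were not tested. No paired analysis was possible because the titles of the BECs and Kupffer-like libraries share no number. With 3 libraries a group, the spread rests on few samples. FPKM leave counting error of low genes unweighted, and purity was not measured apart from the marker sums.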
